A study of Mus musculus with 20 samples.

Results

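The proteasome genes were followed on 81 of the 22690 probe sets of the Affymetrix Mouse Genome 430A array. These are all the probe sets whose single gene symbol in the platform annotation starts with Psma, Psmb, Psmc, Psmd, Psme or Psmg and then a number. They name 47 genes, of which 45 encode subunits, activators or assembly factors of the proteasome. The other two symbols, Psmc3ip and Psme3ip1, are named after proteins that bind a subunit and were kept apart from the subunits. A further probe set that carries several symbols, among them one of this family, was left out.

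The RNA came from myotubes of C2C12, an established mouse myoblast line whose cells fuse into multinucleated muscle fibres when serum is lowered. All groups shared 96 h of differentiation and a final 2 h in medium with 0.5% heat-inactivated horse serum, and they differed in the H2O2 added for those 2 h. The doses were 0, 1, 10, 100 and 1000 µM, with 4 arrays each and 20 in all, and the labels name no genetic change. The design text calls the replicates independent without naming separate cultures, so each p-value below reflects the spread among these arrays alone, and that spread may be technical.

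The proteasome is the large protease that degrades proteins tagged with ubiquitin. Its 20S core is a barrel of stacked rings, built from alpha subunits (Psma genes) that gate the entrance and beta subunits (Psmb genes) that include the cutting sites. The 19S cap binds an end of the barrel, where a ring of ATPases (Psmc genes) unfolds the substrate and non-ATPase subunits (Psmd genes) recognise ubiquitin and remove it. Other activators can take the place of the cap, namely PA28 (Psme1, Psme2 and Psme3) and PA200 (Psme4), and dedicated chaperones assemble the parts. In muscle the proteasome is known for the breakdown of contractile proteins during wasting, and its genes are known as targets of the transcription factor NRF1 (Nfe2l1).

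The values are the deposited linear signals, which the authors had scaled so that all arrays share 1 trimmed mean (500.1 to 500.2). A probe set was tested if its signal reached the 40th percentile of its array (77.7 to 106 across arrays) on at least 4 of the 20 arrays. This left 14379 probe sets, 68 of them of proteasome genes, and 13 of the 81 were filtered out. The 68 cover 44 genes, 17 of which have several tested probe sets. Below, the brightest probe set on average stands for a gene unless a probe set is named. The tested genes comprised 14 of 15 of the 20S core, 17 of 17 of the 19S cap, 3 of 3 activators on the array (Psme1, Psme3 and Psme4), 1 of 3 inducible beta subunits, 4 of 4 chaperones of the core (Psmg1 to Psmg4) and 3 of 3 chaperones of the cap (Psmd5, Psmd9 and Psmd10). Of the 44 representing probe sets, 33 lay among the 3595 brightest of the tested ones. A change is a log2 difference between group means, tested with limma on all 20 arrays (two-sided, n = 4 arrays per group). A rise or a fall means that it passed a Benjamini-Hochberg adjusted p under 0.05 over the 14379 probe sets.

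The arrays differed in ways other than dose. On the first principal component the arrays numbered 1, with the 10 µM array that carries no number and is counted here as its replicate 1, scored 27.6 to 42.5 and the other 15 scored -16.1 to -6.22. Each dose has 1 such array. Values within replicates 2 to 4 are therefore given beside the results. At 1000 µM the array medians of log2 signal lay below those of the untreated arrays by a mean of -0.20 (exact permutation test, two-sided, n = 4, p = 0.0286, the smallest that 70 assignments allow, and 0.114 adjusted over 4 doses). Since the choice of scale then matters, the class medians, the counts of calls and the called members are given under the authors' scaling and after quantile normalization, which moved the 1000 µM changes of all tested probe sets by a median of 0.126. Of the cell type markers, 16 of 16 myotube genes passed the filter, and their summed signal was 95827 to 113286 on untreated arrays and 119491 to 125996 at 1000 µM, groups that did not overlap. At 1 µM it was 115281 to 119502, which also lay above all untreated arrays. Of these 16 genes, 1, Tnnt3, rose at 1000 µM (0.32, adjusted p = 0.034, and 0.605 after quantile normalization). For cycling cells 7 of 7 markers on the array were tested, with a summed signal of 8895 to 9889 untreated and 8607 to 9718 at 1000 µM, and Mki67 fell at 1000 µM while Plk1 fell at 100 µM. The cycling sum was 9898 to 10831 at 1 µM, above all untreated arrays, and 8405 to 8569 at 100 µM, below all of them. Fibroblast markers summed to 18928 to 33089 untreated and 22364 to 33173 at 1000 µM, with 0 of 5 called by limma at either dose (1 at an unadjusted p under 0.05 at 1000 µM, 0 at 100 µM). All 5 leukocyte markers on the array lay under the filter. In such bulk RNA, fewer cells of a type and less RNA per cell cannot be told apart, and the part of these markers in the results below was not tested.

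At 1, 10 and 100 µM no proteasome gene was called. Under the authors' scaling the medians of the 20S core and the 19S cap lay slightly above 0 and that of the activators slightly below. At 1 µM limma called 0 of the 68 probe sets, against 0% of all tested in either direction, with 5 of the 68 and 6.68% of all at an unadjusted p under 0.05. At 10 µM it called 0 again, against 0% for rises and 0.00695% for falls, with 5 and 4.99% unadjusted. At 100 µM it also called 0, against 0.862% for rises and 0.355% for falls, with 6 and 11.2% unadjusted. The rule in the design text, under which every treated array must differ from every control array in the same direction by a mean fold over 1.75, also gave 0 at each of these doses, applied here to the signals rather than to the array software's difference calls.

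The members nearest to a call at these doses differed from dose to dose. They are named here because of their values. At 1 µM the lowest unadjusted p-values were those of Psmb3 probe set 1460198_a_at (0.38 ± 0.125 SE, limma adjusted p = 0.584), Psmd11 (0.19 ± 0.067, 0.619), Psmc6 probe set 1417769_at (-0.43 ± 0.195, 0.726), Psmd4 (0.17 ± 0.08, 0.727) and Psmd13 (0.25 ± 0.121, 0.745). At 10 µM they were those of Psmd14, the deubiquitinase of the cap (0.28 ± 0.105, 0.963), Psmd6, Psmb4, Psmd9 and the second probe set of Psmb4, 1438984_x_at, which lay below 0 (-0.20 ± 0.092, 0.963). At 100 µM the closest was Psmd11, a lid subunit (0.23 ± 0.067, 0.113, and 0.255 after quantile normalization), followed by probe set 1416506_at of Psma6 (0.26 ± 0.089, 0.209) and by Psmd14 (0.29 ± 0.105, 0.251). A dim second probe set of Psmd6 went the other way at 100 µM (-0.46 ± 0.165, 0.251), and it was the 1 member with all 4 arrays below all 4 untreated arrays.

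Counts of members whose 4 treated arrays all lay above the 4 untreated ones were 5 of 68 at 1 µM (1.59% of all tested), 3 at 10 µM (1.4%) and 9 at 100 µM (3.79%). Those below were 0 (2.19% of all), 0 (2.67%) and 1 (5.19%). The 5 at 1 µM were Psma5, Psmb3 (probe set 1460198_a_at), Psmc2 (probe set 1426611_at), Psmd11 and Psmd4. The 3 at 10 µM were Psmc1, Psmd12 and Psmd14. After quantile normalization the counts above were 2 (1.44%), 1 (1.83%) and 3 (4.21%), which lie nearer to the shares of all probe sets.

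By class, the 14 tested genes of the 20S core had a median change of 0.10 at 1 µM, 0.07 at 10 µM and 0.10 at 100 µM, beside -0.02, -0.02 and -0.03 over all tested probe sets. The 17 genes of the 19S cap stood at 0.11, 0.11 and 0.12, and the 3 activators at -0.09, -0.02 and -0.07. After quantile normalization the core stood at 0.04, -0.00 and 0.04, so its sign at 10 µM turned, the cap at 0.06, 0.07 and 0.10, and the activators at -0.07, 0.01 and -0.07, with a turned sign at 10 µM. The medians of all tested probe sets were then 0.01, 0.01 and -0.00. The values differed between the arrays numbered 1 and the rest. At 1 µM the core median was 0.27 between the arrays numbered 1 and 0.04 within replicates 2 to 4, and the cap median 0.31 and 0.04. At 100 µM the cap median was 0.27 and 0.07 in the same split, while the core median was 0.11 and 0.10. The activator median in this split was -0.24 and -0.07 at 1 µM, -0.002 and -0.02 at 10 µM, and -0.31 and -0.02 at 100 µM.

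At 1000 µM over all 20 arrays the core stood above the cap and the cap above the activators under the authors' scaling. The 3 class medians lay close together after quantile normalization. The 20S core had a median change of 0.21, with 14 of 14 genes above 0, from 0.08 for Psma1 to 0.40 for Psmb7. The 19S cap had a median of 0.15, with 15 of 17 genes above 0, from -0.07 for Psmd1, the scaffold of the base, to 0.30 for the ATPase Psmc4. The activators had a median of -0.04, from -0.33 for Psme4 to 0.03 for Psme1. Over all tested probe sets the median was -0.07, and over the 3595 brightest, where most proteasome genes lie, it was 0.09. Of the 68 probe sets 51 changed by more than 0, against 39% of all tested. All 4 arrays lay above all 4 untreated ones for 15 of them (6.66% of all tested) and below for 2 (13.8%), and after quantile normalization for 6 (6.59%) and 4 (8.04%).

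Quantile normalization brought both large classes closer to the other probe sets. The core median was then 0.07, still with 14 of 14 genes above 0, and the cap median 0.07 with 12 of 17, beside 0.01 over all tested probe sets and 0.01 over the 3595 brightest. The activator median turned to 0.05. Members above 0 numbered 55 of 68, against 52.2% of all. Centring each array on the median of the tested probe sets shifted every 1000 µM change up by the same 0.126. The core then stood at 0.34 and the cap at 0.28, no further from the other probe sets than under the authors' scaling. Within replicates 2 to 4 the core stood at 0.20, the cap at 0.10 and the activators at 0.005 under the authors' scaling. Between the arrays numbered 1 these were 0.24, 0.25 and -0.20, so the core did not stand above the cap there.

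**Figure D1:**
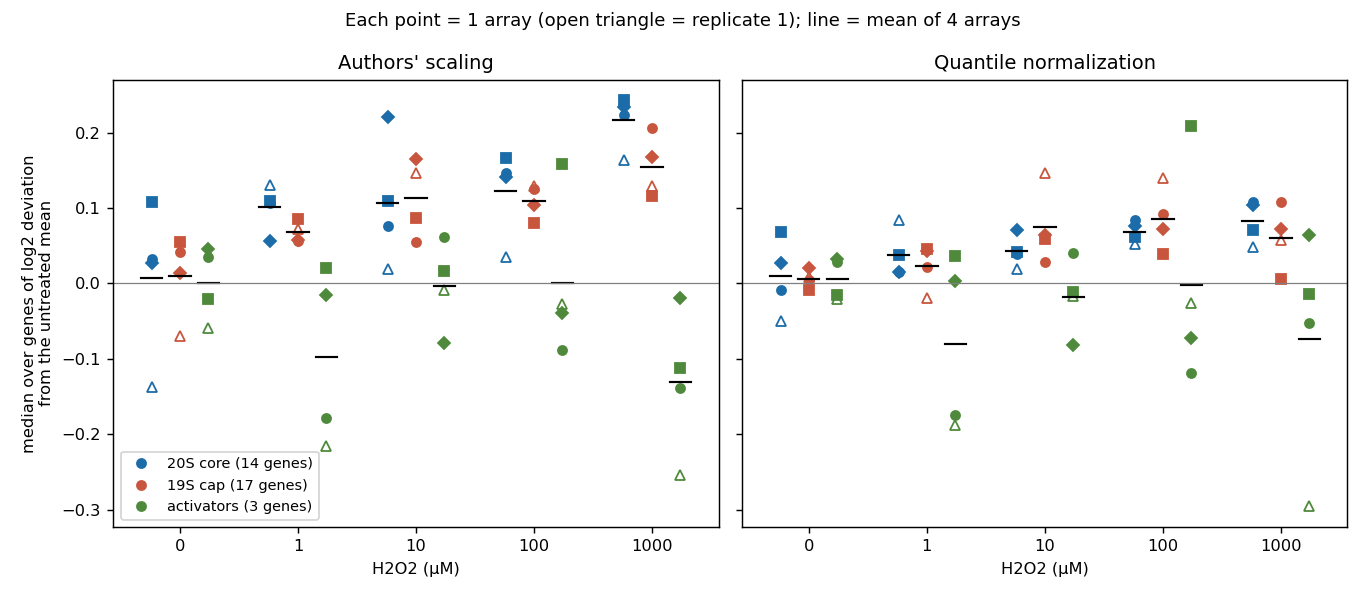
Each point is 1 array, placed by the median over the genes of a class of their log2 deviation from the untreated mean, with H2O2 dose in µM on the horizontal axis, the authors' scaling on the left and quantile normalization on the right (open triangles, arrays counted as replicate 1; lines, means of 4 arrays). Under the authors' scaling the 4 arrays of the 20S core at 1000 µM lie at 0.16 to 0.24, above the untreated -0.14 to 0.11, while after quantile normalization they lie at 0.05 to 0.11 and overlap the untreated -0.05 to 0.07.

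The plot of class medians by array shows the spread behind these values. Untreated replicate 1 was the lowest untreated array for the core (-0.14, the other three from 0.03 to 0.11) and for the cap (-0.07, the others from 0.01 to 0.05). The cap arrays at 1000 µM stood at 0.12 to 0.21 and also lay above all untreated arrays, and after quantile normalization they stood at 0.01 to 0.11 and overlapped them. No test was made on these medians, because the genes were chosen with results of these data known.

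**Figure D2:**
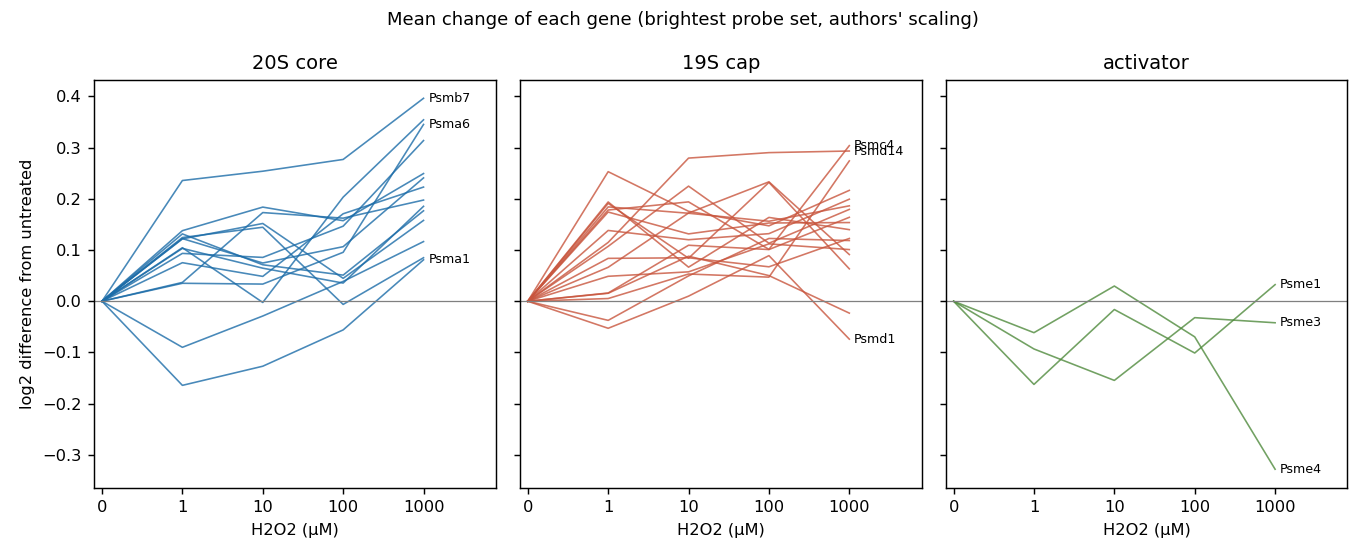
Each line is 1 gene's mean log2 difference from untreated (n = 4 arrays, brightest probe set, authors' scaling) against H2O2 dose in µM, in panels for the 20S core, the 19S cap and the activators. The lines of the core end between 0.08 (Psma1) and 0.40 (Psmb7), those of the cap between -0.07 (Psmd1) and 0.30 (Psmc4), and Psme4 is the one line that drops to -0.33.

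Single calls at 1000 µM were few in the fit without a replicate block. Of the 68 probe sets 4 rose, against 2.46% of all tested, and 2 fell, against 8.48%. The rises were both bright probe sets of Psma6, and those of Psma2 and Psma5, all alpha subunits of the core, and the falls were 2 of the 3 probe sets of Psme4. At an unadjusted p under 0.05 there were 19 of the 68, beside 26.2% of all tested. Of these 19, 17 lay above 0 and 2 below. After quantile normalization 2 rose (2.04% of all) and 2 fell (3.32%), namely the probe set 1416506_at of Psma6, Psmb10 and the same 2 of Psme4. Centring on the median gave 20 rises (8.03% of all) and 1 fall (4.09%). By the crossed rule of the design text 0 passed.

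The promoters of the 4 called genes are printed to show what the DNA just before their starts holds, since 3 of them rose and 1 fell. Each run gives the 150 bases before the RefSeq start (assembly GRCm38.p6, plus strand, 5′ to 3′, overlapping no other annotated gene). Capitals mark matches to CCAAT, the box bound by NF-Y, or its reverse complement, and to TGACNNNGC and TGAGNNNGC, forms of the core bound by NRF1 and its relatives, on either strand.
Psma2, chr13:14613092-14613241: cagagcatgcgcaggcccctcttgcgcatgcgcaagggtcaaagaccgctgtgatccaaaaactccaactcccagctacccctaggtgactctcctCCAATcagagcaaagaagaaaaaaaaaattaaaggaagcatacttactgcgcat
Psma5, chr3:108256776-108256925: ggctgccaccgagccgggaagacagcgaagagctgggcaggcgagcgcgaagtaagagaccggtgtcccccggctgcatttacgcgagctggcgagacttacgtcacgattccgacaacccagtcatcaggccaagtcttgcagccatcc
Psma6, chr12:55384072-55384221: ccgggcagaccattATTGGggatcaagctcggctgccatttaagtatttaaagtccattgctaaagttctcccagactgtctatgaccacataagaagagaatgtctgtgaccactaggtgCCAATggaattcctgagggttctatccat
Psme4, chr11:30771625-30771774: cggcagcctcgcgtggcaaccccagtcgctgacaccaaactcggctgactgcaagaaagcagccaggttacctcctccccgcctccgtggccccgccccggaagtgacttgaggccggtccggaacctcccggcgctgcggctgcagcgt

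In these windows Psma2 has a CCAAT box at -54 and Psma6 has one at -29 and one on the other strand at -136, counted from the start. The window of Psma6 belongs to the first of its 2 RefSeq starts. The windows of Psma5 and Psme4 hold no whole match, though a TGACNNNGC match of Psme4 begins at -7 and runs across the start. Outside the printed windows, Psma5 has a TGAGNNNGC match at 9 after its start. Psma6 has a TGAGNNNGC match at -170 and, before its other start, one at -92. Among members as a whole, 39 of 47 genes have an entry in the RefSeq promoter table, with 42 promoters of 300 bases that run from 250 before to 50 after the start. CCAAT occurred in 15 of the 42 (35.7%, beside 37.4% of all 32851 promoters), TGACNNNGC in 6 (14.3%, beside 12.4%) and TGAGNNNGC in 14 (33.3%, beside 17.6%). Both strands were searched, and 1 stretch could count for more than 1 motif. A match is a description of the letters and no evidence of binding.

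Psma6, an alpha subunit of the core, had the largest rise among the called members. On probe set 1416506_at the untreated signals were 2929, 3023, 2976 and 3243. They were 3248, 2784, 3643 and 3219 at 1 µM, 3116, 3317, 3274 and 3412 at 10 µM, and 3613, 3523, 3747 and 3709 at 100 µM. At 1000 µM they were 3386, 4103, 4660 and 4393. All arrays of 100 µM and of 1000 µM lay above all untreated ones, and replicate 1 was the lowest array of 1000 µM. The change was 0.26 ± 0.089 (SE) at 100 µM, which was not called (limma adjusted p = 0.209), and 0.43 ± 0.089 at 1000 µM, a fold of 1.35 (adjusted p = 0.00363). The 1000 µM call held in each setting tried except the crossed rule, with 0.31 and adjusted p = 0.0274 after quantile normalization and 0.51 (0.000398) within replicates 2 to 4.

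The brighter probe set of Psma6, 1437144_x_at, had its high arrays at 1000 µM alone. Its untreated signals were 3018, 3686, 3866 and 3607, and those at 100 µM 3540, 4006, 3562 and 4002, so these groups overlapped. At 1000 µM they were 4501, 4564, 4408 and 4459, all above every other array of the series. The change was 0.35 ± 0.083 at 1000 µM (limma adjusted p = 0.0111), and it was not called after quantile normalization (0.21, 0.104). The _x_at ending marks probes that can also match other sequences, so part of this signal may belong to near-identical copies. The other tested probe set, which is dim, 1435317_x_at, read 9.9 to 240 over the 20 arrays and had a change of 0.40 ± 0.681, an error larger than the change.

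Psma2, another alpha subunit, read 3352, 3655, 3663 and 3632 untreated. It read 3742, 4195, 4070 and 3830 at 100 µM and 3551, 4771, 5064 and 4533 at 1000 µM. Replicate 1 at 1000 µM lay among the untreated arrays and the other three lay above all of them. The rise at 1000 µM was 0.31 ± 0.088, a fold of 1.24 (limma adjusted p = 0.0273). It was 0.39 within replicates 2 to 4 (0.00061), and it was not called after quantile normalization (0.17, 0.21). The call also ended without untreated replicate 1 (0.071) or 4 (0.0508), and without 1000 µM replicate 2 (0.0867), 3 (0.1) or 4 (0.0667).

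Psma5, an alpha subunit with 2 tested probe sets, read 3120, 3537, 3416 and 3590 untreated on the brighter one, 1434356_a_at. It read 3728, 4054, 4229 and 4128 at 1000 µM, and these groups did not overlap. The rise was 0.24 ± 0.074, a fold of 1.18 (limma adjusted p = 0.0408). It was not called after quantile normalization (0.10, 0.366), without the filter on dim probe sets (0.0683), or without any 1 of the 8 arrays compared except 1000 µM replicate 1 (0.051 to 0.116). Within replicates 2 to 4 the change was 0.24 (0.00397). The second probe set, 1424681_a_at, changed by 0.21 ± 0.098 (0.188).

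The remaining alpha subunits had changes above 0 that were not called under the authors' scaling. Psma4 stood at 0.35 ± 0.134 (limma adjusted p = 0.0964) and Psma1 at 0.08 ± 0.136 (0.764). Psma1 was the one core gene whose change lay below 0 at 1, 10 and 100 µM (-0.16, -0.13 and -0.06). Psma8, an alpha subunit known from testis, had its single probe set under the filter, at 1.2 to 46.5.

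The constitutive catalytic subunits Psmb5, Psmb6 and Psmb7 carry the chymotrypsin-like, caspase-like and trypsin-like sites. Psmb5 read 3557, 3986, 4239 and 3891 untreated and 4490, 4316, 4559 and 4425 at 1000 µM, groups that did not overlap. Its change of 0.19 ± 0.098 was not called (limma adjusted p = 0.238, and 0.04 with 0.819 after quantile normalization). Psmb6 read 2016, 2242, 2395 and 2245 untreated and 2303, 2548, 3114 and 2656 at 1000 µM, which overlap, with a change of 0.25 ± 0.097 (0.103). Psmb7 read 4201, 7818, 7875 and 7513 untreated and 8399, 8647, 9329 and 8601 at 1000 µM. Its groups did not overlap, but untreated replicate 1 lay far under the other untreated arrays. The change of Psmb7 was 0.40 ± 0.146 (0.0872) over all arrays and 0.19 ± 0.07 (0.063) within replicates 2 to 4.

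Of the inducible beta subunits that replace these in the immunoproteasome, Psmb8 and Psmb9 were at the bottom of the scale. The probe set of Psmb8 read 3 to 30 and that of Psmb9 2.9 to 22.9 over the 20 arrays, both under the filter, so no change could be read. Psmb10, the counterpart of Psmb7, was measurable at 329, 302, 329 and 374 untreated, 272, 383, 395 and 406 at 100 µM and 384, 437, 441 and 466 at 1000 µM. The 1000 µM arrays all lay above the untreated ones. The change was 0.37 ± 0.126 under the authors' scaling, which was not called (limma adjusted p = 0.062), and 0.51 ± 0.136 after quantile normalization, which was (0.0322). Within replicates 2 to 4 it was 0.42 ± 0.106 and called (0.0115). At 1000 µM against untreated, Psmb10 was the 1 member called under quantile normalization and not under the authors' scaling. Antigen processing genes, which share its interferon response, were called in 0 of 7 tested at each dose by limma (0 at an unadjusted p under 0.05 at 1, 10 and 100 µM, and 1 at 1000 µM), with a median of 0.13 at 1000 µM.

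**Figure D3:**
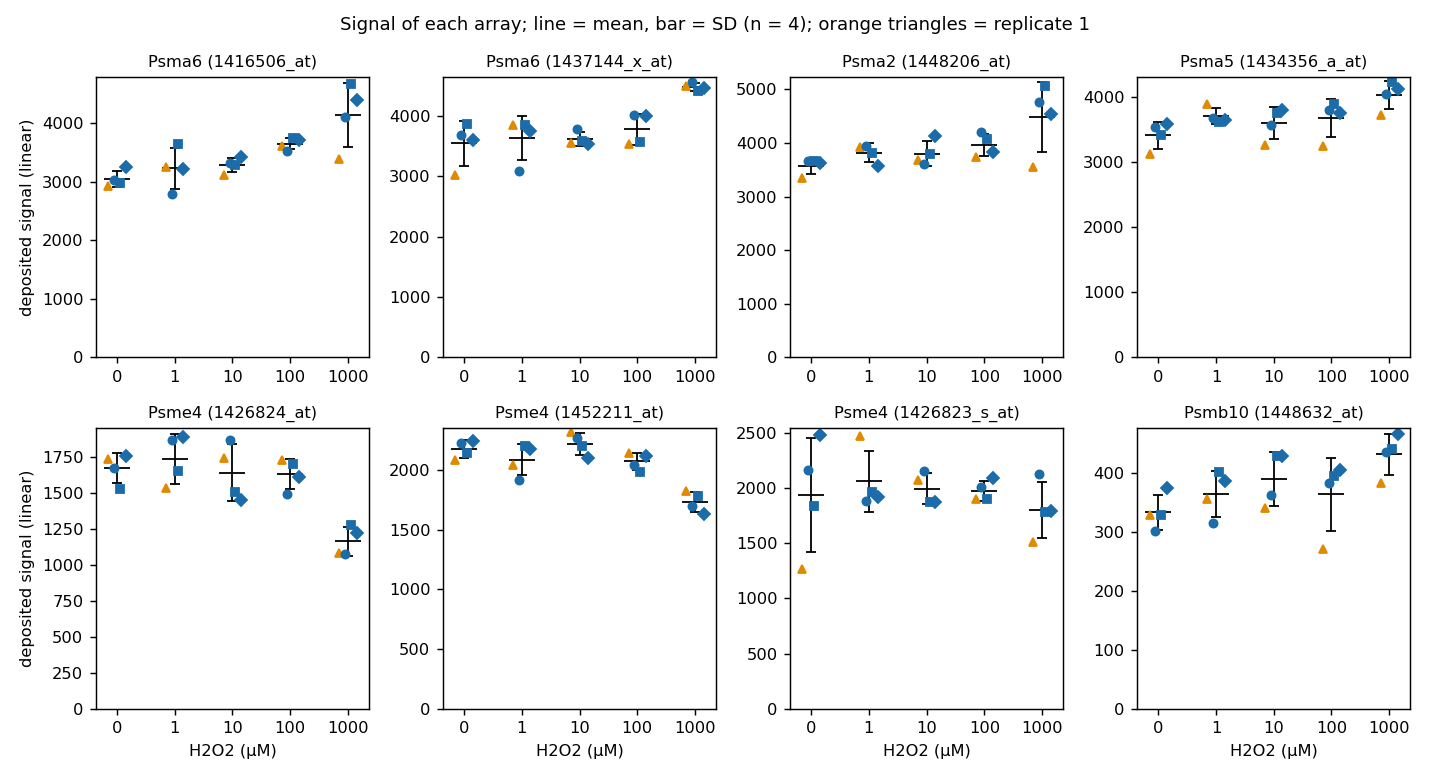
Deposited linear signal of 8 probe sets against H2O2 dose in µM (points, arrays, with orange triangles for replicate 1; line and bar, mean and SD of 4 arrays; axes start at 0). Probe sets of Psma6, Psma2, Psma5 and Psmb10 have their highest mean at 1000 µM, and 2 of the 3 probe sets of Psme4 drop there to 1078 to 1279 and 1632 to 1822.

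In the 19S cap no gene was called at 1000 µM over all 20 arrays under the authors' scaling or after quantile normalization. Within replicates 2 to 4 alone 3 of its genes rose, namely Psmc2 (0.22, limma adjusted p = 0.0468), Psmd8 (0.19, 0.0254) and Psmd12 (0.19, 0.0133). With the replicate number as a block, Psmd14 (0.29, 0.0169), Psmc3 (0.20, 0.0476) and the second probe set of Psmc2, 1426611_at (0.16, 0.0497), were called. The shares of all tested probe sets called in these settings were not counted. With arrays centred on the median, Psmc2, Psmc3, Psmd2, Psmd4, Psmd7, Psmd12 and Psmd14 were called, all above 0. So was the second probe set of Psmc4, 1416291_at, also above 0, but not its brightest. The ATPases Psmc1 to Psmc6 had a median of 0.16, the base subunits Psmd1, Psmd2 and Psmd4 one of 0.10, and the 8 lid subunits one of 0.17. Psmc4 had the highest change of the cap, 0.30 ± 0.167 (limma adjusted p = 0.261). Its probe set 1416290_a_at read 1038, 2007, 2165 and 2271 untreated and 2079, 2346, 2094 and 2330 at 1000 µM, so untreated replicate 1 lay far under the other arrays. Within replicates 2 to 4, without it, the change was 0.07 ± 0.088 (0.617). The second probe set of Psmc4 changed by 0.13 ± 0.075.

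Psmd14, the lid enzyme that cuts ubiquitin off the substrate, read 3234, 3862, 3914 and 4225 untreated. It read 4524, 4824, 4570 and 4494 at 10 µM, all above the untreated arrays, 4376, 4265, 4416 and 5602 at 100 µM, also all above, and 4096, 4974, 4963 and 4606 at 1000 µM, which overlap them. The changes were 0.28, 0.29 and 0.29 at these doses, with limma adjusted p = 0.963, 0.251 and 0.0773. Psmd1 and the ATPase Psmc6 were the 2 cap genes below 0, at -0.07 ± 0.067 (0.531) and -0.02 ± 0.073 (0.881). After quantile normalization 5 cap genes lay below 0, the lowest being Psmc6 at -0.14 (0.274).

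Psme4, which encodes the activator PA200, was the 1 member that fell. Probe set 1426824_at read 1733, 1672, 1529 and 1759 untreated. It read 1533, 1866, 1654 and 1886 at 1 µM, 1742, 1864, 1509 and 1449 at 10 µM, and 1724, 1488, 1699 and 1613 at 100 µM. At 1000 µM it read 1082, 1078, 1279 and 1220, below every array of the other doses. The changes at 1, 10 and 100 µM were 0.05, -0.03 and -0.04, none of them called, and at 1000 µM the level fell by 0.52 ± 0.094, a fold of 0.695 (limma adjusted p = 0.00104), with a change of -0.52 (0.00254) after quantile normalization. Against 100 µM it fell by 0.49 ± 0.094 (0.00381).

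The brighter probe set of Psme4, 1452211_at, gave the same direction. It read 2086, 2226, 2142 and 2242 untreated, 2143, 2045, 1984 and 2115 at 100 µM and 1822, 1698, 1780 and 1632 at 1000 µM. The 1000 µM arrays lay below all arrays of the other doses. The fall was 0.33 ± 0.065 (limma adjusted p = 0.00256) against untreated, with a change of -0.38 (0.00108) after quantile normalization and -0.37 (0.000681) within replicates 2 to 4. It was not called when arrays were centred on the median (-0.20, 0.0531), where 1426824_at was (-0.40, 0.00644). Against 100 µM the fall was 0.26 ± 0.065 (0.0256).

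The third probe set of Psme4, 1426823_s_at, did not follow. It read 1263, 2164, 1841 and 2480 untreated and 1512, 2129, 1785 and 1789 at 1000 µM, overlapping groups with a wide untreated spread, and its change was -0.07 ± 0.149 (limma adjusted p = 0.819). The difference of its change from that of 1452211_at was 0.26 ± 0.156 and was not called (adjusted p = 0.652 over the 5112 pairs of probe sets of one gene). Among the 24 such pairs of proteasome genes limma called 0 at any dose against untreated, against 0.606% of all pairs at 1000 µM, with 2, 2, 2 and 0 at an unadjusted p under 0.05 at 1, 10, 100 and 1000 µM. The _s_at ending marks probes shared by several transcripts.

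The other activators gave no call. Psme1, the PA28 subunit induced by interferon, read 796, 1096, 958 and 1102 untreated and 638, 1319, 1077 and 1110 at 1000 µM, with a change of 0.03 ± 0.2 (limma adjusted p = 0.941). Its replicate 1 was the lowest array at each dose. Within replicates 2 to 4 the change of Psme1 was 0.15 ± 0.09 (limma adjusted p = 0.27). With centring on the median there, a setting chosen after seeing the data, it was called (0.26, 0.042). Psme3, the nuclear PA28 subunit, read 819, 607, 670 and 613 untreated and 721, 610, 622 and 663 at 1000 µM, with a change of -0.04 ± 0.129 (0.878). The 95% interval was -0.38 to 0.45 for Psme1, which includes a change as large as that of Psma6, and -0.31 to 0.23 for Psme3. Psme2 shares its probe set with Psme2b and was therefore left out.

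No assembly factor was called at 1000 µM over all 20 arrays under the authors' scaling. The core chaperones Psmg1 to Psmg4 changed by 0.14 ± 0.114, 0.08 ± 0.149, -0.02 ± 0.123 and 0.18 ± 0.108 (limma adjusted p = 0.477, 0.803, 0.943 and 0.322). Psmg4 was called within replicates 2 to 4 (0.32 ± 0.076, 0.00806). Its replicate 1 at 1000 µM, at 574, lay below the other three (757 to 798), and its untreated replicate 1, at 687, was the highest untreated array. The cap chaperones Psmd5, Psmd9 and Psmd10 changed by -0.14 ± 0.096, 0.16 ± 0.11 and 0.02 ± 0.089 (0.385, 0.399 and 0.9). The 2 symbols that are no subunit, Psmc3ip, a factor of meiotic recombination, and Psme3ip1, changed by 0.15 ± 0.158 and 0.04 ± 0.1 (0.608 and 0.833).

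**Figure D4:**
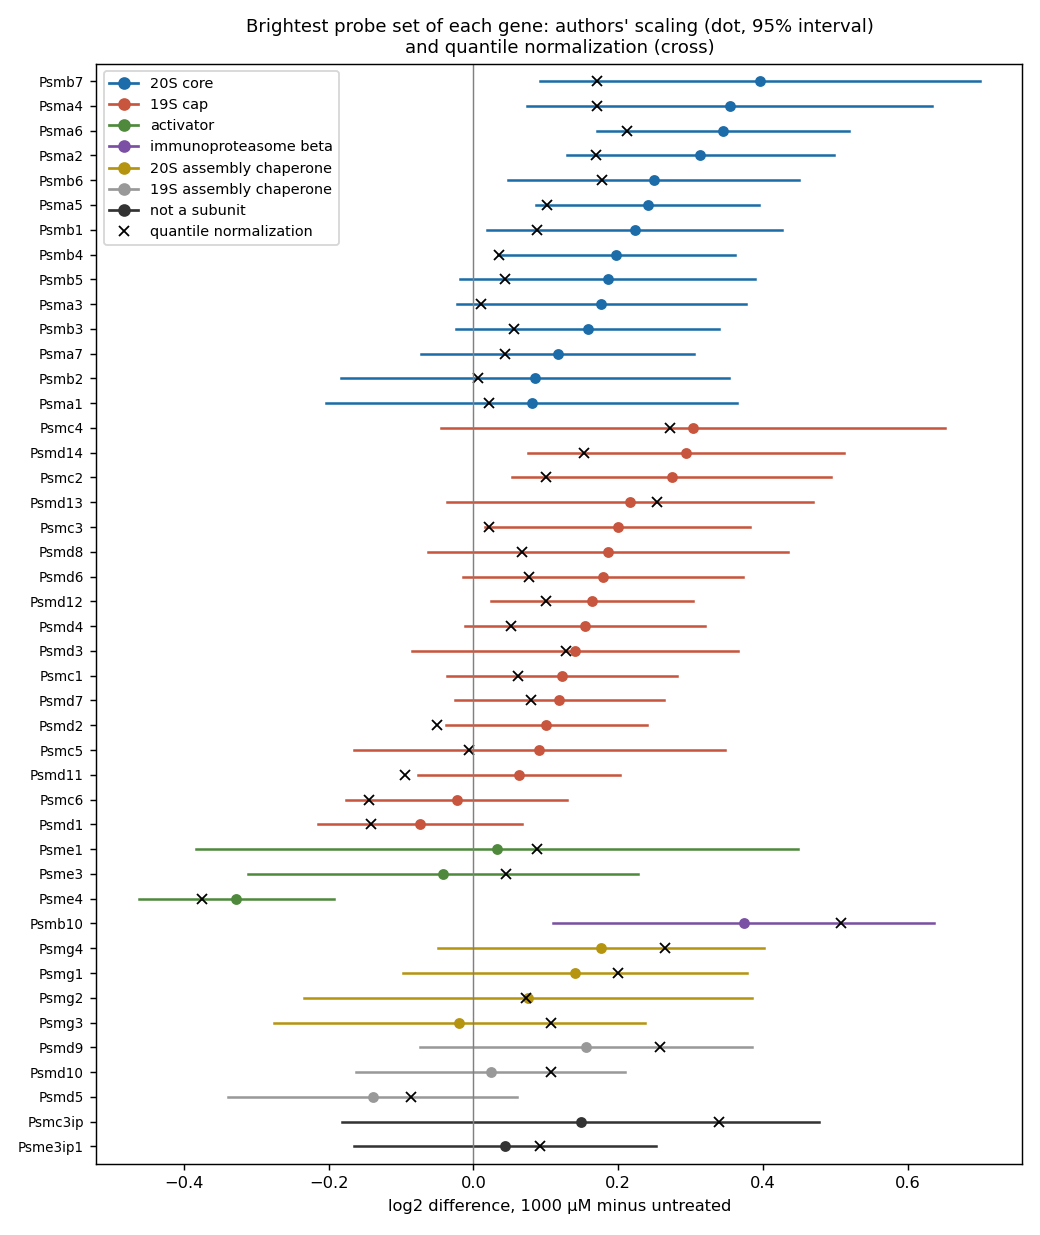
For each of the 44 genes, the dot gives the log2 difference between 1000 µM and untreated under the authors' scaling with its 95% interval (limma, n = 4 arrays per group, brightest probe set), and the cross gives the same difference after quantile normalization, with colours for the classes. All 14 dots of the 20S core lie right of 0 and most crosses lie left of their dots, Psme4 lies left of 0 by both (-0.33 and -0.38), and the cross of Psmb10 lies right of its dot (0.51 against 0.37).

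Between 100 and 1000 µM, a comparison that shares the 1000 µM arrays with the one above, the core had a median change of 0.12 with 14 of 14 genes above 0, the cap 0.00 and all tested probe sets -0.04. After quantile normalization these were 0.05, -0.04 and 0.01. In that comparison 0 members rose, against 0.744% of all, and 2 fell, against 3.6%, both of them probe sets of Psme4. After quantile normalization 3 members fell (1.82% of all), Psmd11 among them (-0.25, limma adjusted p = 0.0144, against -0.17 and 0.174 under the authors' scaling). Between 10 and 100 µM limma called 0 members, against 0.772% of all for rises and 0.16% for falls, with 1 (Psmd11, 0.15) at an unadjusted p under 0.05.

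Genes that serve the proteasome without being members of these families were read from a separate list, 24 of whose 35 genes are on the array, all tested. They include Pomp, which matures the core, Sem1, a small cap subunit, the deubiquitinases Usp14 and Uchl5, the unfoldase Vcp and the transcription factor Nfe2l1. At 1 and 10 µM limma called 0 of the 24 (2 and 1 at an unadjusted p under 0.05). At 100 µM 1 rose and 0 fell (0.862% and 0.355% of all tested). At 1000 µM 1 rose and 1 fell (2.46% and 8.48% of all tested). At an unadjusted p under 0.05 there were 4 of 24 at 100 µM, all above 0, beside 11.2% of all. At 1000 µM there were 9, with 5 above 0 and 4 below, beside 26.2% of all. The list medians were 0.04 at 100 µM and 0.08 at 1000 µM, beside -0.03 and -0.07 over all tested probe sets.

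Zfand2a, which encodes AIRAP, a cap-binding protein known to be induced by arsenite, was the gene that rose. Its brightest probe set read 653, 643, 630 and 642 untreated, 998, 966, 882 and 934 at 100 µM and 675, 862, 901 and 804 at 1000 µM. Both treated groups lay above all untreated arrays. The rise was 0.56 ± 0.095 at 100 µM (limma adjusted p = 0.0026) and 0.33 ± 0.095 at 1000 µM (0.0308), and both were called after quantile normalization as well (0.59 and 0.40). Ecpas, which encodes a proteasome adaptor, fell at 1000 µM by 0.43 ± 0.127 (0.0362), from 580, 501, 478 and 477 to 322, 395, 408 and 394, and was not called after quantile normalization (-0.30, 0.2).

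Nfe2l1 itself read 2036, 2561, 2561 and 2586 untreated and 2036, 2107, 2129 and 2110 at 1000 µM. Its change of -0.21 ± 0.108 was not called (limma adjusted p = 0.224, and 0.144 after quantile normalization). The untreated and treated groups overlapped only through untreated replicate 1. Pomp read 2581, 2812, 2807 and 2702 untreated and 2748, 3573, 3858 and 3293 at 1000 µM, with a change of 0.30 ± 0.119 (0.118). Nploc4, a cofactor of Vcp, was the 1 gene of the list called between 100 and 1000 µM, where it fell (-0.35, 0.0196, and not called after quantile normalization, 0.0592).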

How the data were processed

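RNA of 20 C2C12 myotube samples was measured on 1 array each. The deposited values are linear intensity signals of probe sets, made by the authors with Affymetrix Microarray Suite 5.0 per the labels and the series' design text, and scaled by them to a common trimmed mean near 500. From these, log2 signals (floor of 1) were fitted in limma 3.58.1 (R 4.3.3) over 5 dose groups, with 7 comparisons and Benjamini-Hochberg adjustment over 14379 probe sets. The 64 control probe sets were left out. The fit was tested on simulated data. Genes were named from the platform annotation. The number of arrays limits the precision.

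Alternatives were quantile normalization, centring on the median, no filter, a floor of 16, a block for the replicate number, replicates 2 to 4 alone, each array left out in turn and the design text's crossed rule. Members and gene lists were chosen with earlier results of these data known. The text names members called against untreated, the catalytic pairs, activators, chaperones, symbols that are no subunit, members whose probe sets differ and the highest and lowest of each class. Those named for their values are said to be so.

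Replicate numbers were not taken to pair samples. The 10 µM array without a number was left out of the block and of the fit on replicates 2 to 4 alone.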

Additional observations from a re-analysis of the deposited data

Results flagged for a closer look

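Groups of 4 arrays were checked for the named probe sets and for the class medians. In 16 of the 165 groups, all 16 of them of probe sets, 1 array stood apart from the other three (Dixon's test, 95% level, where chance flags about 1 in 20 groups). In the untreated group this was replicate 1 for 6 probe sets. It was the lowest array for Psma2 (3351.5, the nearest other at 3631.7), Psmb2 (1869 against 2580.8), Psmb7 (4200.8 against 7513.2) and Psmc4 (1038.4 against 2006.5), and the highest for Psmg1 (1042.9 against 807.9) and Psmg3 (565.4 against 397.4).

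At 100 µM replicate 1 was the lowest array for Psmb5 (3203.9 against 4223.3), Psmb7 (7190.3 against 8264.5) and Psmb10 (271.9 against 382.9). At the same dose replicate 2 was the highest for Psmc4 (1973.2 against 1904.4) and replicate 4 for Psmd14 (5601.8 against 4415.6). At 1000 µM replicate 1 was the highest for Psmg1 (1161.6 against 887.6) and the lowest for Psmg4 (573.6 against 756.8). At 1 µM replicate 2 was the lowest for Psma6 probe set 1437144_x_at (3082.7 against 3753.7) and the highest for Psmb6 (2920.4 against 2317.8) and Psmd5 (1135 against 964.3). The cause of these deviations was not tested.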

How the results depend on the processing

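Counts of called members stayed at 0 at 1, 10 and 100 µM and between 10 and 100 µM under each alternative run. At 1000 µM against untreated the 6 calls became 21 with centring on the median, 12 in replicates 2 to 4 alone, 30 there with centring, 0 by the crossed rule, and 4 to 8 with 1 array left out. Between 100 and 1000 µM the 2 calls became 1 with centring, 5 in replicates 2 to 4 alone, 0 by the crossed rule and 1 to 3 with 1 array left out. Of the 5, Psma2 (0.25) and the dim probe set of Psmd6, 1423696_a_at (0.45), lay above 0. Psma2 was also called above 0 (0.27) without 1000 µM replicate 1. The call of Psme4 probe set 1452211_at was the one lost without 100 µM replicate 1, 2 or 4 or 1000 µM replicate 2 or 4. With the replicate number as a block, the counts were 15 and 4, and probe set 1423696_a_at of Psmd6 was among the 4, above 0 (0.43). At 1000 µM Psmb7 (limma adjusted p = 0.0179), Psma4 (0.0459), Psmb10 (0.0147), Psmd14 (0.0169), Psmb1, Psmb4 and Psmc3 were then called beside the 6. So were the second probe sets of Psmb3 (1460198_a_at) and Psmc2 (1426611_at). The share of all tested probe sets called was not counted with the block, in replicates 2 to 4 alone or with 1 array left out. The counts of called members in those settings can therefore not be set against it. In their deviations from group means, pairs of arrays numbered 1 correlated at 0.462 to 0.514, pairs numbered 2, 3 and 4 at 0.0531 to 0.195, 0.109 to 0.245 and 0.00993 to 0.261, and pairs of different numbers at -0.388 to 0.325. Since not every same-numbered pair passed 0.1, the numbers were not taken to pair samples. The main fit therefore holds no term for the arrays numbered 1, and their distance from the rest counts in its error.

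The 20S core median became -0.00091 at 10 µM and 0.0718 at 1000 µM with quantile normalization, and 0.336 at 1000 µM with centring. The 19S cap median at 1 µM became 0.0551 with quantile normalization, 0.153 with centring, 0.0400 in replicates 2 to 4 alone, 0.0419 over all its probe sets and 0.0254 to 0.130 with 1 array left out, the lowest without untreated replicate 1. At 10 µM it became 0.0657 and 0.159 with quantile normalization and centring. At 100 µM it became 0.169 with centring, 0.0720 in replicates 2 to 4 alone and 0.0887 to 0.170 with 1 array left out. At 1000 µM it became 0.0670 with quantile normalization, 0.280 with centring and 0.105 in replicates 2 to 4 alone. The activator median at 1000 µM became 0.0839 with centring. The cause of these shifts was not tested. Of 1596 values of uncalled named probe sets under an alternative, 130 turned sign. Replicates 2 to 4 alone with quantile normalization and with centring were chosen after seeing the data. Signals near the filter level limit what can be read of Psmb8, Psmb9 and Psma8.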

Other observations

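Within replicates 2 to 4 alone, 12 members were called at 1000 µM against untreated by limma, 10 of them above 0. The share of all tested probe sets called in that setting was not counted, so the 12 cannot be set against it. Beside both bright probe sets of Psma6, Psma2, Psma5, Psmb10, Psmg4 and 2 probe sets of Psme4, these were the core subunit Psmb4, the ATPase Psmc2 and the lid subunits Psmd8 and Psmd12, which are named here for their values. None of these last 4 genes was called over all 20 arrays under the authors' scaling or after quantile normalization, and with centring on the median Psmb4, Psmc2 and Psmd12 were.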
